A study of Mus musculus with 6 samples.

Results

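The genes described here are the mouse collagens, laminins and integrins, 83 of the 21938 protein-coding genes of the GENCODE annotation on the mm10 genome that were examined. They were taken by gene name and comprise 44 collagen chains, 11 laminin chains and 28 integrin genes. Their 5′ ends were measured by CAGE, which sequences a short tag from the 5′ end of each capped RNA, so that the tags at a position count the RNAs that start there. Nuclear RNA was sequenced from R08, a line of mouse embryonic stem cells (mESCs) grown without feeder cells in serum and LIF, in 3 libraries. The other 3 libraries came from oli-neu, a line that stems from oligodendrocyte progenitors of the mouse (mOPCs), grown on poly-L-lysine in DMEM with N2 supplement, thyroid hormones, bFGF and PDGF-BB. The labels name no genetic change in either line; as background, oli-neu was made by immortalising such progenitors with the t-neu oncogene. Each group is a single cell line, so that a difference between the groups is one between these lines in these media. The 3 libraries of a line also carry the same library label, and a difference of preparation cannot be told apart from a difference of cell type. The labels do not say whether libraries of a line came from separate cultures, and p-values then measure only the spread between these libraries.

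Collagens are trimeric proteins of the extracellular matrix. Fibrillar collagens form the cables of connective tissue, collagen IV forms the sheet of basement membranes, and other groups decorate fibrils, make beaded filaments or stay in the cell membrane. Laminins are cross-shaped trimers of an α, a β and a γ chain that build the other network of basement membranes, the thin matrix under epithelia and around the early embryonic tissues. Integrins are the cell's receptors for these proteins, pairs of an α and a β subunit in which the α subunit largely sets the ligand. In the embryo, laminins and collagen IV make the first basement membrane. In the central nervous system, oligodendrocyte progenitors meet laminins at blood vessels and axons through integrins, and have integrin αv paired with several β subunits.

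A gene's level was the number of tags within 500 bp of its annotated 5′ ends on its own strand, per 1000000 tags of the library (CPM). Since CAGE counts 1 tag per RNA end, these levels were not divided by the length of a gene. Genes differ in their number of annotated 5′ ends, from 1 for Col5a3 to 13 for Col16a1, and tags elsewhere in a gene are left out. Levels set side by side between genes therefore compare only the tags near annotated 5′ ends. The libraries held 16657021 to 40928704 tags. Libraries of a line resembled each other closely (r at least 0.996 across genes on a log scale) and those of different lines did not (r at most 0.545), where genes are not independent replicates. The 10 stem cell markers summed to 4736 to 5207 CPM in mESCs and 41.3 to 46.1 in mOPCs. The 10 markers of the oligodendrocyte lineage summed to 19.3 to 20.6 in mESCs and 2528 to 2679 in mOPCs. Of these last, 9 were higher in mOPCs and Nkx2-2, a transcription factor of the lineage, had no tag in any mOPC library. The lines thus carried most of the markers of their labels. In bulk RNA, fewer cells that express a gene and less RNA per cell cannot be told apart.

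Of the 83 genes, 51 had enough tags to be tested (edgeR quasi-likelihood test over all 14222 protein-coding genes with enough tags, Benjamini-Hochberg adjusted p under 0.05). In mOPCs, 25 were higher than in mESCs, 25 were lower, and 1 passed in neither direction. The lines are so different that this count says little by itself. Among all tested genes, 91.2% were called, 42.4% as higher and 48.8% as lower in mOPCs, against 98.0% of the tested collagens, laminins and integrins. The libraries of the 2 lines did not overlap for 50 of the 51, or 98.0%, and for 91.4% of all tested genes. The size of the changes differed more. At least 3 on the log2 scale, an 8-fold change, was passed by 18 tested members that were higher in mOPCs, 35.3% of them, against 10.5% of all tested genes. It was also passed by 18 that were lower, again 35.3%, against 18.0% of all tested genes. The median absolute change was 5.11 on the log2 scale, against 1.5 over all tested genes, while the median signed change was 0.03 against -0.16. Genes with few tags in both lines are not among the 51, and a gene high in a single line had to differ to be among them, so these shares describe the tested genes and not the whole families. The other 32 genes had at most 47 tags in the pooled libraries of a line. Of them 5 had no tag in any library, and 12, these 5 included, had at most 3 tags in the 6 libraries together.

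**Figure D1:**
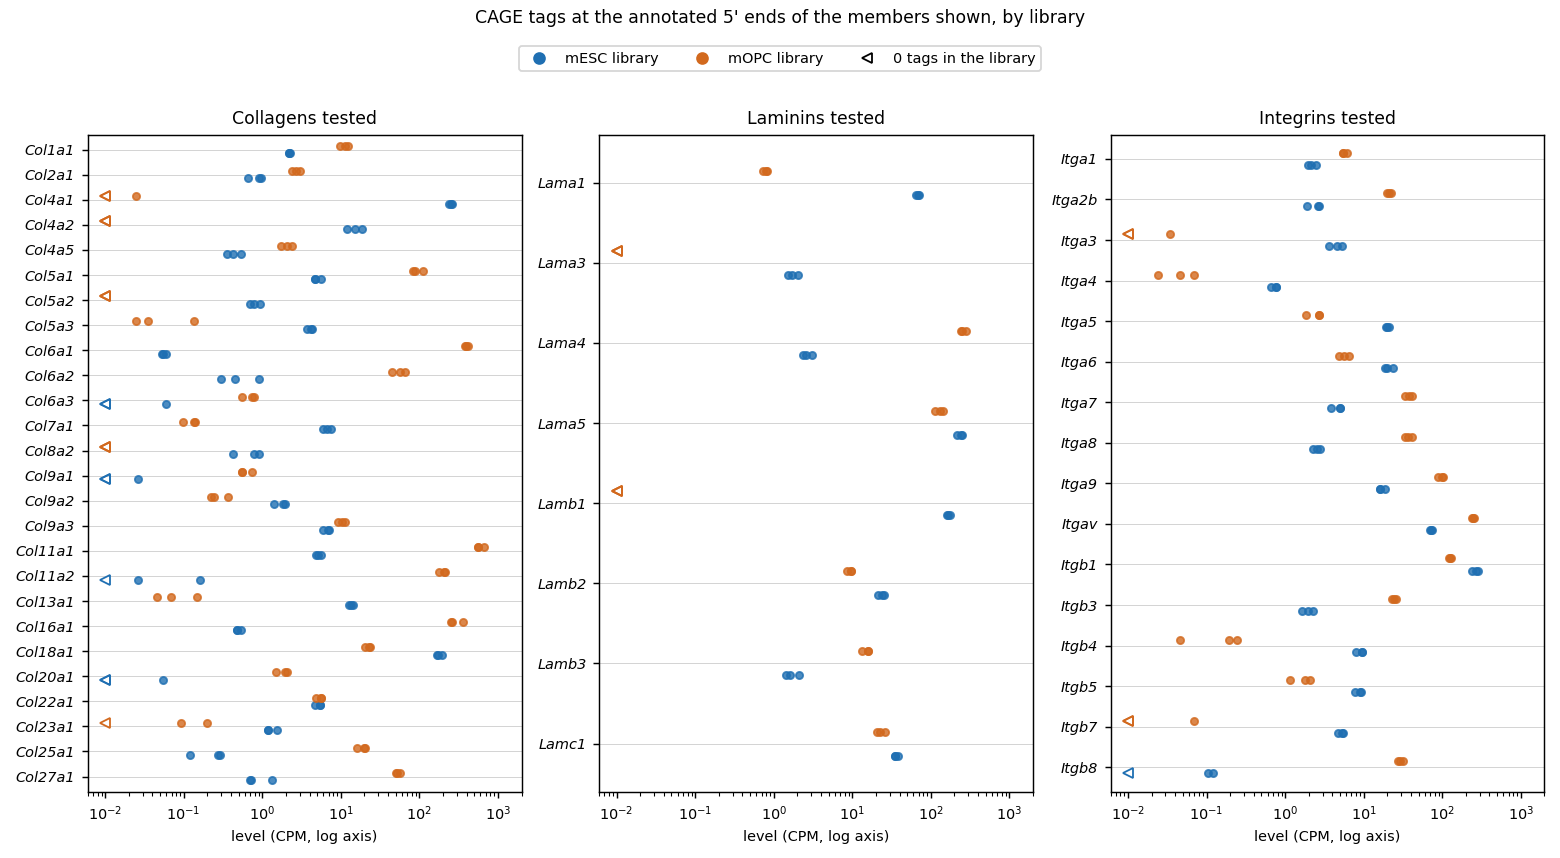
Level of the tested genes in each library, without 1 laminin chain that is not reported here (1 point per library, CPM on a log axis), with mESC libraries in blue, mOPC libraries in orange and open triangles at the left edge for libraries with 0 tags. Points of a line lie close together, while the lines are mostly far apart, from Col4a1 at 238 to 259 in mESCs to Col11a1 at 556 to 658 in mOPCs.

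By family, 15 of 26 tested collagens were higher in mOPCs, 10 were lower and 1 was not called. Of 9 tested laminins, 2 were higher and 7 were lower. Of 16 tested integrins, 8 were higher and 8 were lower. These counts are to be read beside 42.4% higher and 48.8% lower among all tested genes. Summed over its genes, the collagen family held 504 ± 22 CPM in mESCs and 1757 ± 119 in mOPCs (mean ± SD, n = 3 libraries of each line, as throughout). The laminins held 547 ± 17.5 and 434 ± 31.3, and the integrins 436 ± 19.7 and 636 ± 19.2. In each family the sums of the lines did not overlap. The laminins were the family with the lower sum in mOPCs.

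**Figure D2:**
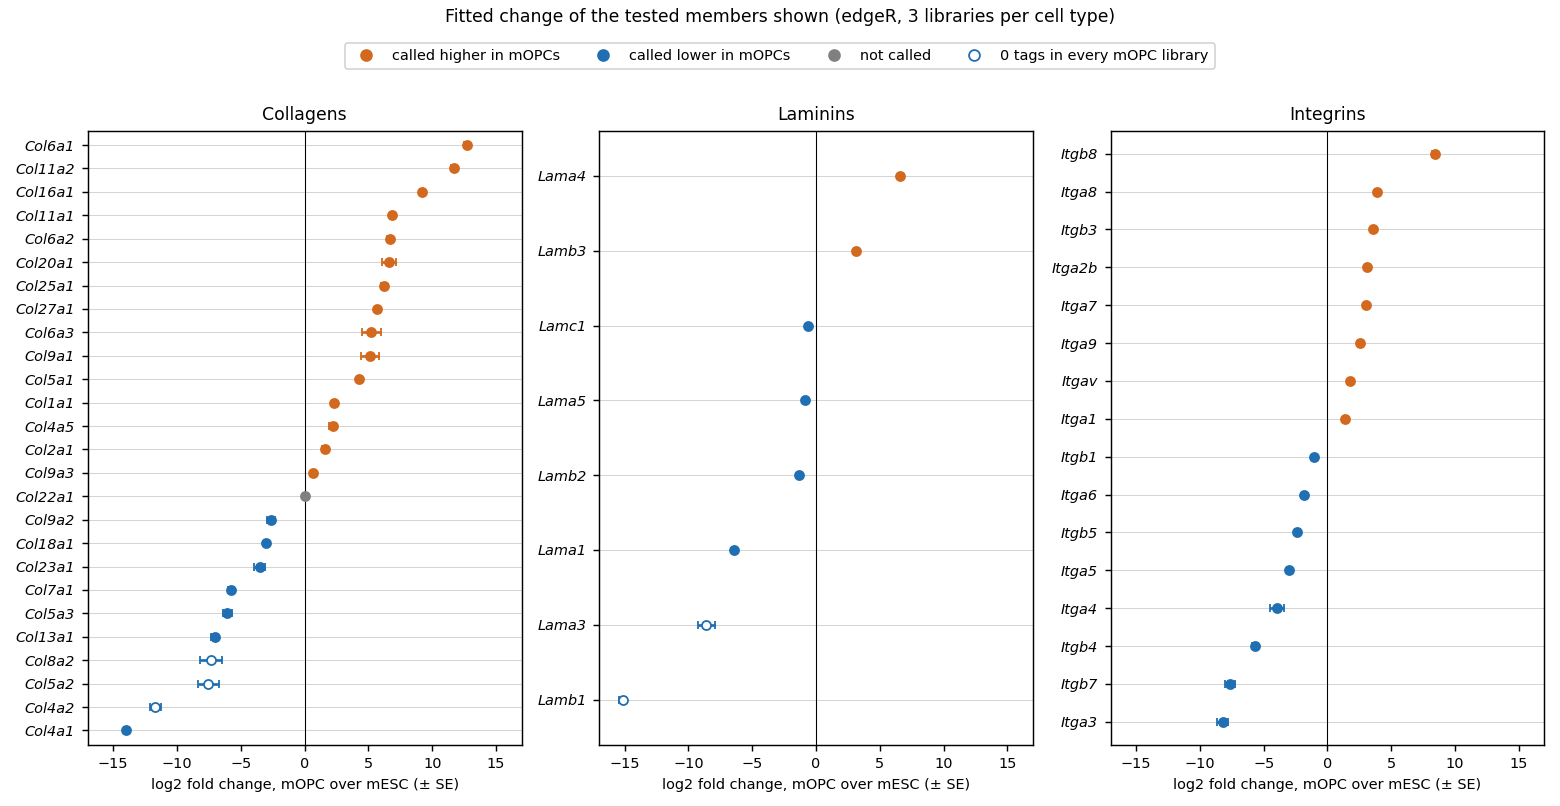
Change of each tested gene shown, the same genes as in the plot of levels, between mOPCs and mESCs (log2 fold change of the edgeR fit ± SE), sorted within the 3 families, in orange where higher in mOPCs, blue where lower and grey where not called. The values run from -15.16 for Lamb1 to 12.69 for Col6a1. Open circles are genes with 0 tags in mOPCs, whose fitted change is not a bound. The SE is derived from the test statistic and is too narrow where a line had only a few tags.

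The places where these RNAs start can be read from the genome. For a few members with high or opposite levels, the sequence up to the position with the most tags is printed here from the RefSeq promoter table (GRCm38.p6, the mm10 genome), on the gene's strand and 5′ to 3′. They were chosen to show a laminin and several collagens with nearly all or most of their tags in a single line, a laminin, a collagen and an integrin that start at the same base in both, and Col5a1, which does not. The position with the most tags as recorded and the base after it are in capitals. Windows are 55 bases long, or 30 where the leading position lies more than 20 bases downstream of an annotated 5′ end close by.
Lamb1, mESCs: ctaggcgaaactttctaattccctTCtttg
Lama5, both lines: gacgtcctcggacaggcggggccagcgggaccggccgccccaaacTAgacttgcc
Col18a1, mESCs: gcccgcagcagcggtcgggagcacTGtggg
Col13a1, mESCs: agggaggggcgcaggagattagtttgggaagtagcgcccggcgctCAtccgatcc
Col6a1, mOPCs: ctccaccctccctggctctctcctCAgctc
Col25a1, mOPCs: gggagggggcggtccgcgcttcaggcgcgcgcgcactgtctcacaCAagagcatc
Col27a1, both lines: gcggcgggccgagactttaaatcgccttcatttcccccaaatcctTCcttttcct
Itga8, both lines: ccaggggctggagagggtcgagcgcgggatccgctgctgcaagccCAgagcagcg
Col5a1, mESCs: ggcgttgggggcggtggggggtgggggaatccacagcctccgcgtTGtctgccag
Col5a1, mOPCs: gtgctcagcgccgaaggcgaggtcCGcact

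The Lamb1 window lies at chr12:31265271-31265300 on the plus strand, and its capital position held 14% of the gene's tags in mESCs. That of Lama5, at chr2:180225853-180225907 on the minus strand, held 26.5% in mESCs and 34% in mOPCs, at the same base in all 6 libraries. The Col18a1 window is chr10:77166510-77166539, minus strand, with 29.6%, and the Col13a1 window is chr10:61979122-61979176, minus strand, with 34.6%. In mOPCs the Col6a1 position, within chr10:76726020-76726049 on the minus strand, held 25.8% and lay 143 bp downstream of the nearest annotated 5′ end. The Col25a1 position, within chr3:130180799-130180853 on the plus strand, held 27.8% and lay 47 bp upstream of one. Col27a1, at chr4:63215366-63215420 on the plus strand, had 46.1% of its tags at 1 base in mESCs and 44.1% at the same base in mOPCs, although its level differed 51.5-fold. Itga8, at chr2:12301934-12301988 on the minus strand, had 15.9% at the printed base in pooled mESCs, where only 1 of the 3 libraries had its own maximum there, and 26.2% in mOPCs. For Col5a1 the leading positions of the lines were 64 bp apart on the plus strand, within chr2:27886344-27886398 in mESCs and chr2:27886429-27886458 in mOPCs.

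RNA polymerase II usually starts RNAs at a purine that follows a pyrimidine. At the leading positions of all protein-coding genes with a sequence, 12583 starts of 7470 genes, the recorded base closed such a pair in 1.19%, while the base after it did so in 88.5%. The shares were 88.4% for genes of the plus strand and 88.6% for those of the minus strand. Among the members this held at 0 of 31 starts for the recorded base and at 24 of 31 (77.4%) for the base after it. Leading positions lay exactly 1 bp upstream of an annotated 5′ end in 19.5% of all these starts and at the annotated end itself in 3.39%. Positions are given here as the files record them, and both bases are therefore in capitals. In the windows of Lamb1 and Col27a1 the capitals are a pair of pyrimidines.

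Of 25 members with at least 50 tags in both lines, 12 had their leading position at the same base in both. It differed by up to 20 bp in 2, by more than 20 and up to 500 bp in 8, and by more than 500 bp in 3 (Col2a1, Col18a1 and Lamb3). For Col2a1 the 2394 bp between the lines are less than the 14321 bp over which the leading positions of single mESC libraries were spread. The pooled mESC position of that gene led in 0 of these libraries. The differences of Col11a1 (127 bp), Itgb5 (23 bp) and Itga1 (6 bp) did not exceed the spread between libraries of a line either. That spread was 143 bp for Col11a1 in mESCs, and 25 bp for Itgb5 and 6 bp for Itga1 in mOPCs. Among the members with the same base in both lines were Itgb1, Itgav, Itgb3, Lama1, Lama4, Lama5, Lamb2 and Lamc1. Within the merged 500 bp windows that hold the leading position, and without a gene's other start regions, the stretch with the central 80% of the tags had a median of 56 bp over 41 members in mESCs and of 81 bp over 35 in mOPCs. Only 25 members are in both sets, so the 2 medians do not compare the lines over the same genes. Promoter sequences of 300 bases, from 250 before to 50 after the annotated start, were found in the RefSeq table for 60 of the 83 genes. The letters TATAAA, the core of the TATA box, occurred on either strand in 5 of these 60 (Col3a1, Col10a1, Col11a2, Col13a1 and Col17a1), or 8.33%, against 12.9% of 16522 genes. GGGCGG, the GC box bound by Sp1, occurred in 56.7% against 48.0%, and CCAAT in 26.7% against 38.7%. The GC box letters stood in 15 of 18 members that were lower in mOPCs and in 9 of 19 that were higher. The share over all genes called lower or higher was not computed, so this contrast is not shown to be particular to the members. Only the first entry of each gene was searched, which need not hold the start used in a line. Each motif was searched on its own, so that matches of different motifs can share bases, and a match describes only these letters in this window.

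Collagen IV, the sheet-forming collagen of basement membranes, was the leading collagen of mESCs and was almost without tags in mOPCs. Col4a1 (ENSMUSG00000031502, chr8:11198423-11312826, minus strand) and Col4a2, the chains of its most common trimer, start from a shared promoter in opposite directions. Col4a1 had 259, 253 and 238 CPM in mESCs and 0, 0 and 0.0244 in mOPCs. The mOPC value is a single tag, and the ratio of the pooled levels was 23110.2 in favour of mESCs, with a 95% exact binomial interval of 4147 to 912855 that covers counting error only (log2 fold change -13.98 ± 0.21, SE, adjusted p = 1.51e-49). The SE is derived from the test statistic and is far narrower than this interval. Col4a2 had 15.2, 18.7 and 11.8 in mESCs and no tag in mOPCs, at least 463-fold lower when 3 tags are set over the pooled mOPC libraries (adjusted p = 1.05e-22). The groups were far apart for both genes. Within mESCs, however, the pair was unequal, with 17, 13.5 and 20.1 times as many tags for Col4a1 as for Col4a2, at leading positions 127 bp apart on chromosome 8.

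The other collagen IV chains were low and went the other way where they could be tested. Col4a5, a chain of the network of kidney and other mature basement membranes, had 0.422, 0.36 and 0.543 CPM in mESCs and 2.42, 2.08 and 1.73 in mOPCs, a change of 2.19 ± 0.28 on the log2 scale (adjusted p = 2.09e-10). Its neighbour and partner Col4a6 had 0.020 ± 0.0347 CPM in mESCs and 0.352 ± 0.179 in mOPCs, and was not tested. Col4a3 and Col4a4, which also share a promoter, reached at most 0.147 and 0.41 in any library and were not tested. The 6 chains summed to 266 ± 13.3 in mESCs and 2.86 ± 0.483 in mOPCs. Col18a1, whose protein carries heparan sulfate in basement membranes and is the source of endostatin, was the second collagen of mESCs. It had 195, 170.2 and 175 CPM in mESCs and 22.6, 20.5 and 23.7 in mOPCs and was 8.08-fold lower in mOPCs (adjusted p = 1.48e-35). Col7a1, the anchoring fibril collagen below epithelia, had 7.57, 6.6 and 5.92 CPM in mESCs and 0.137, 0.139 and 0.0977 in mOPCs. All libraries of mESCs were above all libraries of mOPCs for both of these genes.

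Collagen VI, which forms beaded filaments close to cells, showed the opposite pattern. Col6a1 (ENSMUSG00000001119, chr10:76708792-76726168, minus strand) had 0.0528, 0.060 and 0.0543 CPM in mESCs and 384, 390.4 and 411 in mOPCs. That is a change of 12.69 ± 0.18 on the log2 scale (adjusted p = 2.05e-50), the largest rise among the members. Each mESC library held 1 or 2 tags of it, and the SE, derived from the test statistic, does not cover their counting error. Col6a2, its neighbour and partner chain, had 0.449, 0.30 and 0.923 CPM in mESCs and 66, 56 and 45.1 in mOPCs (adjusted p = 2.72e-18). Col6a3, the third and longest chain of the trimer, was also higher in mOPCs, but at a much lower level, 0.775, 0.555 and 0.733 in mOPCs against 0, 0.060 and 0 in mESCs. With a single tag in mESCs its ratio was 50.1, with an interval of 8.68 to 2011. The chains of the trimer therefore differed in mOPCs by far more than the spread between libraries, from 395 ± 14.2 for Col6a1 through 55.7 ± 10.4 for Col6a2 to 0.688 ± 0.117 for Col6a3. Col6a4, Col6a5 and Col6a6, which can stand in for Col6a3, had no tag near their starts in mOPCs and at most 0.38 in an mESC library.

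The fibrillar collagens summed to 19.4 ± 0.397 in mESCs and 951 ± 64 in mOPCs, mostly through collagens XI and V, which set the width of fibrils. Of 8 tested, 6 were higher and 2 were lower, against 42.4% and 48.8% of all tested genes. Col11a1 (ENSMUSG00000027966, chr3:114030540-114220718, plus strand) had 4.83, 5.16 and 5.54 CPM in mESCs and 658, 559 and 556 in mOPCs, and was the highest of all members in mOPCs. Its change was 6.85 ± 0.11 on the log2 scale (adjusted p = 1.50e-47). Col11a2 had 0.0264, 0 and 0.163 CPM in mESCs and 209.6, 179.6 and 206 in mOPCs, a change of 11.70 ± 0.20, and Col5a1, which can join collagen XI trimers, had 4.72, 5.64 and 4.67 CPM in mESCs and 83.2, 89.3 and 112 in mOPCs, a change of 4.26 ± 0.12. All 3 had no library of a line within the range of the other. The SE of Col11a2, with 4 tags in pooled mESCs, does not cover their counting error. Col27a1, a short fibrillar collagen of cartilage, had 1.35, 0.72 and 0.705 CPM in mESCs and 57.1, 51.1 and 51.9 in mOPCs; it was named after its values were seen. The other fibrillar chains were low. Col1a1, the main chain of collagen I, had 2.22, 2.16 and 2.22 CPM in mESCs and 9.67, 11.3 and 12.3 in mOPCs (adjusted p = 8.69e-21), whereas its partner Col1a2 had 0.106, 0.24 and 0.109 in mESCs and no tag in mOPCs. Col2a1, the collagen of cartilage, had 0.977, 0.66 and 0.923 CPM in mESCs and 2.42, 2.98 and 2.66 in mOPCs, and its direction turned when fewer tags were counted, as given with its start regions. Col3a1, the companion of collagen I in soft tissue, had 1 tag in all 6 libraries.

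The other chains of collagen V fell. Col5a2 had 0.95, 0.78 and 0.705 in mESCs and no tag in mOPCs, at least 26-fold lower (adjusted p = 4.60e-12). Col5a3 had 3.67, 4.14 and 4.34 CPM in mESCs and 0.137, 0.0347 and 0.0244 in mOPCs at its annotated starts (adjusted p = 8.41e-23). Col5a1 thus rose while both of its partner chains fell at the annotated starts. For Col5a3 this depends on which tags are counted, since over all tags inside the gene it was higher in mOPCs by 3.47 on the log2 scale, as set out with the tags inside genes.

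**Figure D3:**
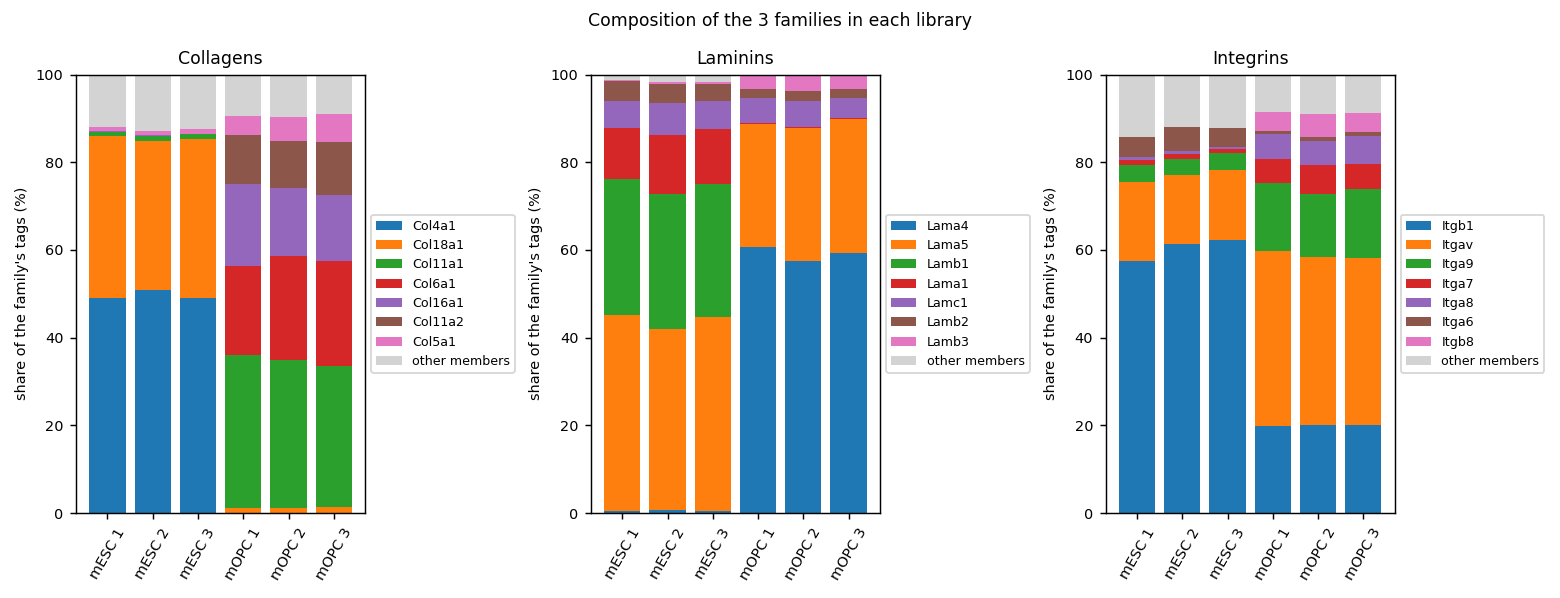
Share of each family's tags taken by its leading genes (percent of the family's summed level, 1 stacked bar per library from 0 to 100%, other members in grey). Col4a1 and Col18a1 fill most of the mESC collagens and Col11a1, Col6a1, Col16a1 and Col11a2 most of those of mOPCs, Lama5 and Lamb1 lead the laminins of mESCs and Lama4 those of mOPCs, and the integrin with the largest share is Itgb1 in mESCs and Itgav in mOPCs.

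Few genes made up each line's collagen tags near annotated 5′ ends. Tags elsewhere in the genes are not in these shares, such as 59.1 CPM in Col9a2, 49.3 in Col9a1 and 48.9 in Col5a3 in mOPCs. In mESCs Col4a1 took 49.6% ± 1.02 of them and Col18a1 35.8% ± 1.47, followed by Col4a2 with 3.03% ± 0.671 and Col13a1 with 2.69% ± 0.122. In mOPCs Col11a1 took 33.6% ± 1.33, Col6a1 22.6% ± 1.95, Col16a1 16.5% ± 2.0, Col11a2 11.3% ± 0.589 and Col5a1 5.42% ± 1.03. None of the 4 leading collagens was the same in both lines.

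The fibril-associated collagens, which bind the surface of fibrils, summed to 14.1 ± 0.888 in mESCs and 309 ± 56.6 in mOPCs. Col16a1 made most of this, with 0.475, 0.48 and 0.543 CPM in mESCs and 355, 256 and 262 in mOPCs, a change of 9.19 ± 0.17 on the log2 scale (adjusted p = 5.12e-29). Collagen IX, a trimer of 3 chains on cartilage fibrils, did not move as a unit at its annotated starts. Col9a1 had 0.547, 0.555 and 0.733 in mOPCs and a single tag in mESCs, a ratio of 46.2 with an interval of 7.96 to 1854. Col9a2 fell at these starts, with 1.43, 1.92 and 1.85 CPM in mESCs and 0.365, 0.243 and 0.22 in mOPCs (adjusted p = 2.82e-11), but was higher in mOPCs over all tags inside the gene. Col9a3 rose by 0.65 ± 0.13 on the log2 scale, with 5.94, 6.78 and 7.05 CPM in mESCs and 11.3, 9.12 and 10.3 in mOPCs (adjusted p = 7.33e-06, the largest among the 50 called members). Its change was -0.03 with adjusted p = 0.826 when tags within 100 bp of the annotated ends were counted. Col22a1, a collagen of tissue junctions, was the gene that passed in neither direction, with 5.41, 4.74 and 5.43 CPM in mESCs and 5.52, 4.89 and 5.6 in mOPCs. Its change was 0.03 ± 0.14 on the log2 scale with a 95% interval of -0.25 to 0.31 (adjusted p = 0.848), and the libraries of the lines overlapped. Col20a1 rose as well, with 2.05, 1.49 and 1.93 in mOPCs and 1 tag in mESCs, a gene named after its values were seen.

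The transmembrane collagens split. Col13a1, found at cell adhesions and the neuromuscular junction, fell at its annotated starts, with 14.3, 12.8 and 13.6 CPM in mESCs and 0.0456, 0.0694 and 0.147 in mOPCs (adjusted p = 7.72e-33), and did not pass over all tags inside the gene. Col25a1, a membrane collagen of neurons, had 0.29, 0.12 and 0.271 CPM in mESCs and 16.2, 19.5 and 20.3 in mOPCs and was higher in mOPCs, and Col23a1 had 1.19, 1.2 and 1.52 CPM in mESCs and 0.0912, 0 and 0.195 in mOPCs and was lower (both named after their values were seen). Col8a2, a short-chain collagen of endothelial basement membranes, had 0.792, 0.42 and 0.923 in mESCs and no tag in mOPCs, at least 22.6-fold lower (adjusted p = 5.98e-11). Its partner Col8a1 had 1 tag in each mESC library and none in mOPCs. Of the 44 collagens, 18 were not tested. Col10a1 and Col19a1 had no tag in any library, and the others among the 18, among them Col12a1, Col14a1, Col17a1, Col24a1 and Col28a1, stayed under 0.9 CPM in every library.

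For laminins, the chains of laminin-111, the first laminin of the embryo, all had tags in mESCs, while in mOPCs Lamb1 had none and Lama1 stayed under 1 CPM. Lamb1, the β1 chain (ENSMUSG00000002900, chr12:31265234-31329644, plus strand), had 175, 162 and 166 CPM in mESCs and no tag in any mOPC library. It was at least 5185-fold lower in mOPCs (adjusted p = 6.17e-47). Lama1, the α1 chain, had 65.2, 71.1 and 69.1 CPM in mESCs and 0.821, 0.728 and 0.806 in mOPCs, a change of -6.43 ± 0.14 on the log2 scale (adjusted p = 5.60e-43). Lamc1, the γ1 chain that most laminins share, had 34.8, 38.5 and 35.4 CPM in mESCs and 22.5, 26 and 20.9 in mOPCs. It was lower by far less, with -0.65 ± 0.094 on the log2 scale, the smallest change among the called members (adjusted p = 1.07e-08).

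Lama4, the α4 chain of vessel and nerve basement membranes, was the leading laminin of mOPCs. Lama4 (ENSMUSG00000019846, chr10:38965515-39110188, plus strand) had 2.61, 3.06 and 2.39 CPM in mESCs and 247, 245 and 277 in mOPCs, a change of 6.58 ± 0.12 (adjusted p = 2.02e-46). Lama5, the α5 chain, was high in both lines, with 251, 219 and 244 CPM in mESCs and 114, 129.7 and 144 in mOPCs. It was 1.84-fold lower in mOPCs (adjusted p = 5.79e-14), and the lines did not overlap. Lama3, the α3 chain of epithelial laminin, had 1.72, 1.5 and 2.06 in mESCs and no tag in mOPCs, at least 53.6-fold lower, while Lama2, the chain of muscle and Schwann cells, was not tested, with 0.245 ± 0.114 CPM in mESCs and 0.0152 ± 0.0263 in mOPCs.

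The β chains were few in mOPCs. Lamb2, the β2 chain of synapses and kidney, had 25.2, 24 and 21.4 CPM in mESCs and 8.62, 9.61 and 9.68 in mOPCs and was 2.53-fold lower (adjusted p = 1.08e-16). Lamb3, the β3 chain of an epithelial laminin, had 1.45, 1.62 and 2.12 CPM in mESCs and 13.4, 15.9 and 15.8 in mOPCs and was 8.95-fold higher (adjusted p = 6.55e-26). Lamc3 stayed at or under 0.238 in each mESC library, with no tag in mOPCs. In sum, α chains held 311 ± 14.3 in mESCs and 386 ± 31.3 in mOPCs, and β chains 193 ± 7.77 and 24.3 ± 2.01. A laminin needs 1 chain of each kind, and α chains outnumbered β chains in the nuclear RNA of both lines. Of the laminin tags of mESCs, Lama5 took 43.5% ± 1.75, Lamb1 30.6% ± 0.439 and Lama1 12.5% ± 0.935. Of those of mOPCs, Lama4 took 59.1% ± 1.68 and Lama5 29.7% ± 1.43.

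Among the integrins, Itgb1 and Itgav led in both lines but changed in opposite directions. Itgb1, the β1 subunit that pairs with most α subunits (ENSMUSG00000025809, chr8:128685654-128733200, plus strand), had 239, 268 and 283 CPM in mESCs and 127, 124 and 131 in mOPCs, a 2.06-fold fall (log2 fold change -1.04 ± 0.079, adjusted p = 7.33e-18). Itgav, the αv subunit that binds the RGD letters of vitronectin and fibronectin (ENSMUSG00000027087, chr2:83724397-83806916, plus strand), had 74.2, 69 and 72.3 CPM in mESCs and 254, 237 and 249.6 in mOPCs, a 3.43-fold rise (adjusted p = 2.40e-27). The order of the 2 genes was reversed between the lines, with Itgb1 at 60.4% ± 2.46 of the integrin tags of mESCs and 20.005% ± 0.0792 of those of mOPCs, and Itgav at 16.5% ± 1.16 and 38.8% ± 0.924.

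Of the β subunits that pair with αv, Itgb3 and Itgb8 rose and Itgb5 fell. Itgb3 had 2.27, 1.98 and 1.63 CPM in mESCs and 25.5, 22.9 and 24.4 in mOPCs (adjusted p = 2.62e-30). Itgb8, whose pair with αv activates latent TGF-β, had 0.106, 0.12 and 0 CPM in mESCs and 27.1, 31.7 and 28.8 in mOPCs, a change of 8.39 ± 0.24 on the log2 scale and the largest rise among the integrins (adjusted p = 4.78e-37). Its SE does not cover the counting error of the 6 tags in pooled mESCs. Itgb5 had 9.24, 7.74 and 9.06 CPM in mESCs and 1.14, 2.05 and 1.81 in mOPCs, with mESC libraries above all mOPC libraries (adjusted p = 2.12e-19). Itgb6 had 1 tag in each mOPC library and none in mESCs. In mESCs the order of these subunits was Itgb5, Itgb3 and Itgb8, and in mOPCs Itgb8, Itgb3 and Itgb5, with no overlap between neighbours in either line.

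The α subunits that bind laminin split. Itga6, the α6 subunit, had 18.6, 23.6 and 20.02 CPM in mESCs and 4.88, 5.58 and 6.45 in mOPCs, 3.59-fold lower in mOPCs (adjusted p = 2.96e-20). Itga3 had 5.28, 4.56 and 3.64 in mESCs and 1 tag in mOPCs, a ratio of 431 with an interval of 76.8 to 17072. Itga7, the laminin receptor of muscle, had 5.01, 4.98 and 3.8 CPM in mESCs and 33.9, 41.2 and 37.5 in mOPCs, 8.04-fold higher (adjusted p = 3.13e-30). Itgb4, the β4 subunit that pairs with α6 in hemidesmosomes, had 9.42, 8.1 and 9.44 CPM in mESCs and 0.0456, 0.243 and 0.195 in mOPCs (adjusted p = 1.71e-28). In mESCs Itga6 was thus the highest of the laminin-binding α subunits, and in mOPCs Itga7 was. Of the α subunits that bind collagen, Itga1 alone was tested, with 1.98, 2.46 and 2.12 CPM in mESCs and 5.43, 6.07 and 5.5 in mOPCs at its annotated starts (adjusted p = 2.50e-11), a rise that turned over all tags inside the gene. Itga2, Itga10 and Itga11 stayed under 0.3 CPM in every library.

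Of the RGD-binding α subunits besides αv, Itga5, the fibronectin receptor, fell, with 21.3, 19.6 and 19.3 CPM in mESCs and 1.82, 2.67 and 2.69 in mOPCs (adjusted p = 1.92e-27). Itga8, which binds nephronectin, rose, with 2.77, 2.52 and 2.28 CPM in mESCs and 36.6, 33.7 and 41.1 in mOPCs (adjusted p = 1.61e-33). Itga2b, the platelet subunit that pairs with β3, also rose, with 2.69, 1.92 and 2.6 CPM in mESCs and 20.1, 21.2 and 22.1 in mOPCs (adjusted p = 9.02e-28). The groups did not overlap for any of these genes. Itga9, a receptor for tenascin C and other ligands, had 16.2, 16.1 and 18.5 CPM in mESCs and 99.5, 88.2 and 103 in mOPCs, 5.75-fold higher (adjusted p = 2.38e-31). Its relative Itga4 had 0.765, 0.66 and 0.76 CPM in mESCs and 0.0456, 0.0694 and 0.0244 in mOPCs at its annotated starts (adjusted p = 1.69e-09), a fall that turned over all tags inside the gene. Itgb7, the partner of α4 in lymphocytes, had 5.23, 4.68 and 5.48 in mESCs and 2 tags in mOPCs, a ratio of 237 with an interval of 65.1 to 1963 (adjusted p = 3.13e-25). None of the 5 α subunits of leukocytes (Itgad, Itgae, Itgal, Itgam and Itgax) was tested, and the highest value among them was 0.792, for Itgal in an mESC library. Itgam had no tag at all. The integrin-like gene Itgbl1 and the leukocyte gene Itgb2l were likewise not tested, the latter with no tag.

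Some members had several start regions. Shares here are of a gene's tags within 500 bp of its annotated 5′ ends, without tags elsewhere in the gene. Of the members with at least 50 tags in both lines, 7 had at least 2 regions that each took 10% or more of these tags in a line. Members with fewer tags in either line, such as Col16a1 with 36 in pooled mESCs, were not examined for this. The shares were compared with a two-sided exact permutation test over the libraries, where 3 against 3 allow no p below 0.1, and that value was reached by every region named next unless another is given. The clearest case was Col18a1. Its upstream start (77166548 on chromosome 10, minus strand) took 99.4% ± 0.13 of its tags in mESCs and 0.0799% ± 0.0561 fell on the start 77120 bp downstream (77089428). In mOPCs the upstream start took 0.0564% ± 0.0977, a single tag, and the downstream start 97.1% ± 1.75. The lines therefore hardly shared an annotated start of Col18a1, although the gene had tags in both. In pooled mOPCs a further 2857 tags lay elsewhere in the gene, against 2057 near its annotated 5′ ends. Over the whole gene the leading mOPC position was 77151399, which is 61926 bp from the leading position near the annotated ends. Lamb3 moved in the other direction. Its start at 193273338 on chromosome 1 took 13.7% ± 5.8 in mESCs and 97.6% ± 0.411 in mOPCs, and that at 193301993, downstream on the plus strand, 84.4% ± 6.57 and 1.8% ± 0.33.

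**Figure D4:**
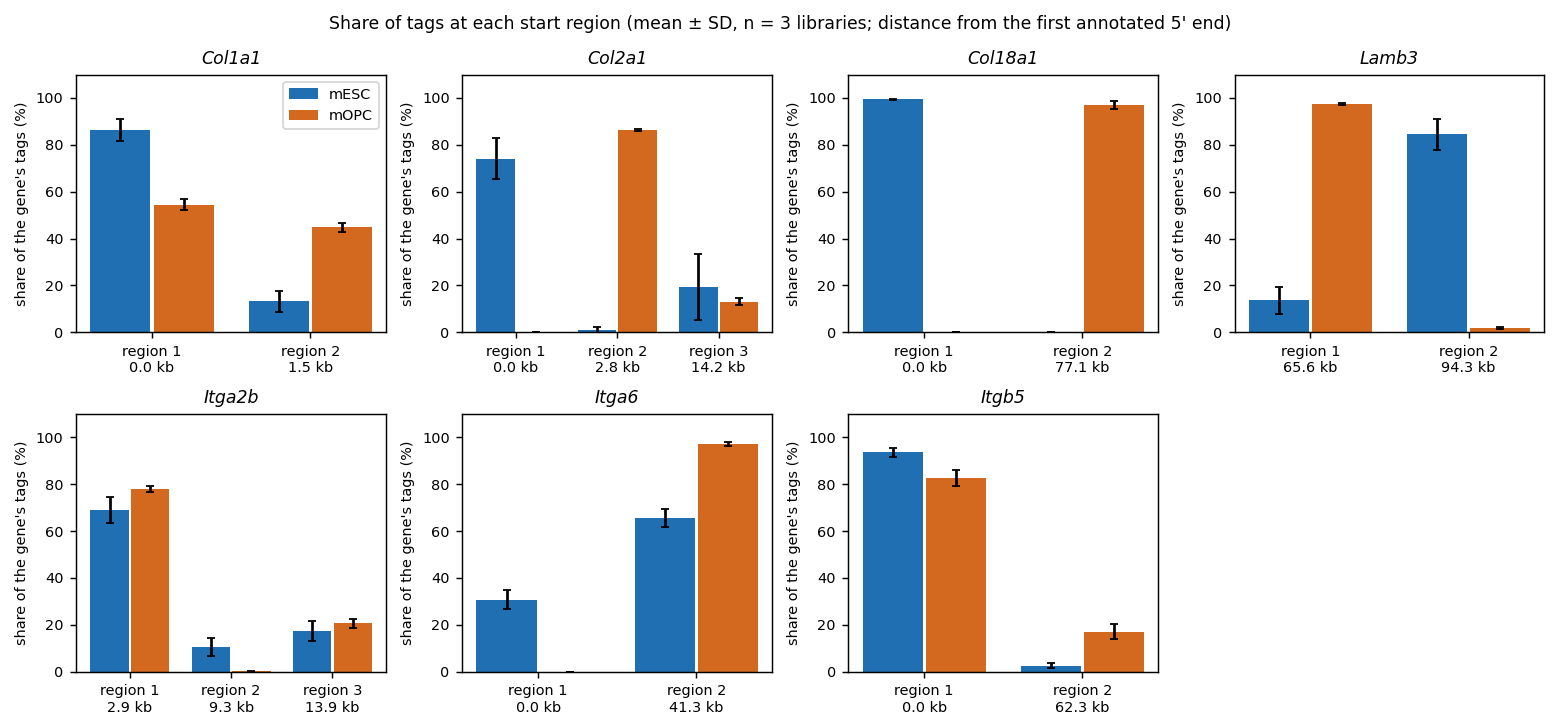
Share of each gene's tags near annotated 5′ ends at its start regions (percent, bars are the mean of 3 libraries ± SD, mESCs in blue and mOPCs in orange), for the 7 members with several start regions, each labelled with its distance from the first annotated 5′ end. In Col18a1 the mESC bar reaches 99.4% at the first region and the mOPC bar 97.1% at the other, while in Col1a1 both regions are used in both lines. Only members with at least 50 tags in both lines were examined.

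In Itga6, the upstream start at 71745616 on chromosome 2 took 30.7% ± 4.17 in mESCs and none in mOPCs, where the start 41313 bp downstream of it (71786929) took 97.2% ± 0.816, against 65.6% ± 3.84 in mESCs. In Col2a1, the first region took 74.1% ± 8.67 in mESCs and none in mOPCs, the next, 2808 bp downstream, 0.901% ± 1.56 and 86.4% ± 0.387, and the last 19.3% ± 14 and 13% ± 1.47 (exact permutation p = 0.9). Col2a1 had 65 tags in the pooled mESC libraries, so these shares are coarse. Its rise at all annotated starts turned into a fall of 2.61 on the log2 scale when tags within 100 bp of the annotated ends were counted (adjusted p = 9.62e-07). Col1a1 used both of its regions in both lines, at 86.4% ± 4.65 and 13.2% ± 4.46 in mESCs and 54.4% ± 2.33 and 44.8% ± 2.02 in mOPCs. In Itgb5 the first region kept most tags in both, 93.5% ± 1.78 and 82.5% ± 3.45, with 2.48% ± 1.03 and 17% ± 3.25 at the region 62276 bp downstream. Itga2b had 69% ± 5.67 and 78% ± 1.37 at its main region, 10.5% ± 3.68 and 0.113% ± 0.114 at the next, and 17.4% ± 4.13 and 20.7% ± 1.82 at the last (exact permutation p = 0.3).

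Tags also lay inside the genes, more than 500 bp from any annotated 5′ end, and for several members these outnumbered the tags at the annotated starts. In mOPCs this held for all 3 chains of collagen IX. Inside Col9a2 there were 0.922 ± 0.117 CPM in mESCs and 59.1 ± 3.16 in mOPCs, against 0.276 ± 0.078 at its annotated starts in mOPCs. Of the mOPC tags inside it, 73.1% fell into a 200 bp stretch of an intron, chr4:121041569-121041768 on the plus strand, which held 0.0957 ± 0.0731 in mESCs and 43.2 ± 0.586 in mOPCs. Inside Col9a1 there were 0.0288 ± 0.0301 and 49.3 ± 6.6, densest at chr1:24230659-24230858. Inside Col9a3 there were 5.86 ± 0.336 and 27 ± 0.586, densest at chr2:180600861-180601060. Both of these stretches are intronic and on the plus strand too, and no other gene of the annotation starts there. Counted over the whole gene, all 3 chains were higher in mOPCs, with log2 fold changes of 10.08 for Col9a1 (adjusted p = 4.82e-38), 4.49 for Col9a2 (adjusted p = 1.14e-37) and 1.57 for Col9a3 (adjusted p = 2.44e-21). The direction of Col9a2 is the opposite of that at its annotated starts. Whether these tags mark starts missing from the annotation was not tested.

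**Figure D5:**
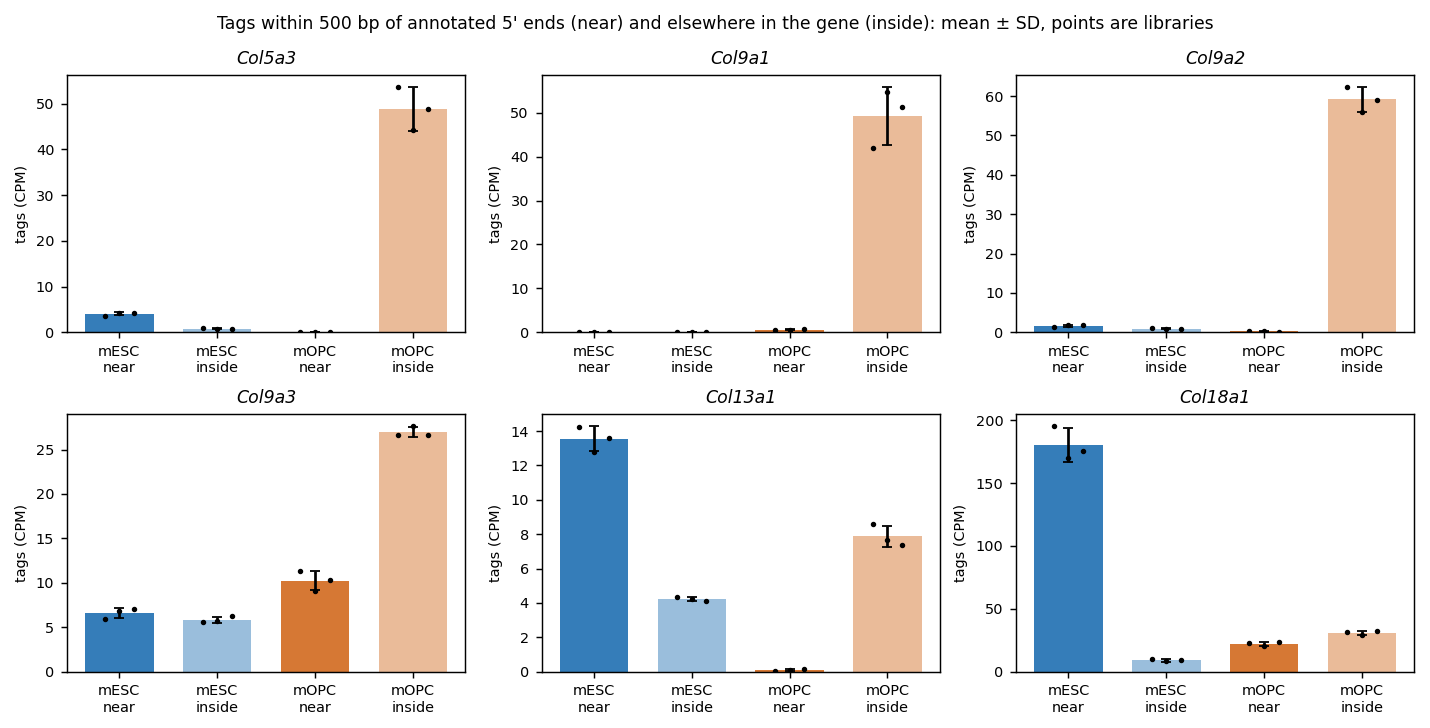
Tags near annotated 5′ ends and tags inside the gene away from them (CPM on a linear axis from 0, bars are means ± SD, points are libraries) for 6 collagens. In mOPCs the inside tags of Col9a2 (59.1 on average) and Col5a3 (48.9) stand far above those at the annotated starts (0.276 and 0.0653).

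Col5a3 behaved likewise. Inside it lay 0.774 ± 0.107 CPM in mESCs and 48.9 ± 4.77 in mOPCs, 64.3% of the latter at chr9:20794255-20794454 in an intron on the minus strand. In Col18a1 a further 31 ± 1.69 lay inside the gene in mOPCs and 9.16 ± 1.09 in mESCs, densest at chr10:77151262-77151461 (0.0264 ± 0.0457 and 14.7 ± 1.46). The gene remained lower in mOPCs over all its tags, with a change of -1.77 on the log2 scale. Col13a1 had 4.23 ± 0.117 and 7.87 ± 0.625 inside, and over all its tags its change was -0.24 and no longer passed (adjusted p = 0.054). Over all tags inside the gene, Itga4 turned from a fall to a change of 1.69 (adjusted p = 1.04e-06). Itga1 turned from a rise to -0.70 (adjusted p = 8.91e-09), and there the inside tags sit at the start of Pelo, a gene on the same strand within Itga1, from which they cannot be told apart.

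The partners of these families were described with lists of other genes. Of 20 basement membrane partners, 18 were tested, with 7 higher and 10 lower in mOPCs, against 42.4% and 48.8% of all tested genes, and a median change of -1.27 (-0.16 over all tested genes). In each of these lists the share called in either direction is to be read beside 91.2% of all tested genes. Ntn4, a netrin that binds laminin γ chains, had 0.901 ± 0.181 CPM in mESCs and 53.4 ± 3.36 in mOPCs and Hmcn1, hemicentin, 2.03 ± 0.368 CPM in mESCs and 36.1 ± 5.86 in mOPCs. Fbln1, a fibulin of basement membranes and elastic fibres, had 57.5 ± 3.55 in mESCs and no tag in mOPCs, and Frem2, of the Fraser complex below epidermis, 21.3 ± 0.535 CPM in mESCs and 0.0895 ± 0.0154 in mOPCs. Both nidogens, which tie laminin to collagen IV, were lower, Nid1 with 10.7 ± 1.02 CPM in mESCs and 0.0394 ± 0.0356 in mOPCs and Nid2 with 374 ± 17.4 CPM in mESCs and 9.78 ± 1.61 in mOPCs, and so was the heparan sulfate proteoglycan perlecan (Hspg2), with 269 ± 13 CPM in mESCs and 55.7 ± 5.68 in mOPCs. Agrin (Agrn), another such proteoglycan, was higher, with 157 ± 6.94 CPM in mESCs and 248 ± 12.4 in mOPCs. These 4 genes were named after their values were seen.

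Of 31 collagen-processing genes, 26 were tested, with 12 higher, 12 lower, against 42.4% and 48.8% of all tested genes, and a median change of -0.06 (-0.16 over all tested genes). Serpinh1, the collagen chaperone HSP47, had 46.4 ± 3.34 in mESCs and 2 tags in mOPCs, and Adamts14, which removes the N-terminal propeptide of procollagen, 18.5 ± 1.11 and no tag. Crtap, the partner of P3h1 in a complex that hydroxylates collagen prolines, had 37.9 ± 1.17 CPM in mESCs and 0.0315 ± 0.0273 in mOPCs and was named after its values were seen. P3h2, an enzyme of the same kind, rose from 1.29 ± 0.172 to 90.3 ± 7.49, and Colgalt2, which puts galactose on collagen, from 0.186 ± 0.083 to 12.1 ± 1.02. The fall of Serpinh1 stood beside a collagen sum that was higher in mOPCs.

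Of 34 proteins of integrin adhesions, 31 were tested, with 15 higher, 13 lower, against 42.4% and 48.8% of all tested genes, and a median change of 0.13 (-0.16 over all tested genes). Of the complex of Ilk with a parvin and a PINCH protein, Ilk had 21 ± 1.21 CPM in mESCs and 52.1 ± 1.64 in mOPCs, Parvb fell from 49.5 ± 2.46 to no tag while Parva rose from 6.59 ± 0.438 to 15.5 ± 0.676, and Lims1 fell from 327 ± 23.4 to 135 ± 14.7 while Lims2 rose from 1.09 ± 0.272 to 107.9 ± 6.92. Ilk, Parva and Lims1 were named after their values were seen. Fermt1, kindlin-1, fell from 2.27 ± 0.529 to no tag, and Fyn, the Src kinase of the oligodendrocyte lineage, rose from 20.7 ± 0.377 to 308 ± 8.13.

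Of 38 other matrix glycoproteins and receptors, 32 were tested, with 21 higher, 9 lower, against 42.4% and 48.8% of all tested genes, and a median change of 3.03 (-0.16 over all tested genes). Tnr and Tnc, tenascins of the nervous system, had no tag in mESCs and 1007 ± 57.9 and 46.4 ± 4.27 in mOPCs. Sdc4, a syndecan of focal adhesions, fell from 172 ± 17 to a single tag and Matn3, a matrilin of cartilage, from 20.2 ± 1.82 to none. Fn1, fibronectin and the ligand of α5β1, had 839 ± 28 CPM in mESCs and 19.2 ± 1.22 in mOPCs, and the collagen receptors Ddr1 and Ddr2 rose, Ddr1 from 11.5 ± 0.817 to 109.9 ± 6.24 and Ddr2 from 0.809 ± 0.094 to 84.2 ± 4.63. These 3 genes were named after their values were seen.

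Markers of other cells that make these matrix proteins were set beside them. Counts of called markers are to be read beside 42.4% higher and 48.8% lower among all tested genes. Of 6 markers of extraembryonic endoderm, the embryonic tissue known for laminin-111 and collagen IV, 5 were lower and 1 was higher in mOPCs. They summed to 73.4 to 91.6 CPM in mESCs and 56.4 to 62.3 in mOPCs. Most of the sum was Dab2 in both lines, while Gata4 and Gata6, the defining factors of that lineage, had 10.9 ± 1.2 and 10.2 ± 0.473 in mESCs, and Sox17 had 2.29 ± 0.56. In mOPCs Gata6 and Sox17 had no tag, and Gata4 had 0.0197 ± 0.0178. Dab2 was higher in mOPCs, with 47.5 ± 6.31 in mESCs and 58.7 ± 3.1 in mOPCs. The other markers moved in the same direction as Col4a1, Lama1 and Lamb1, and their part in those values was not tested. Of 6 fibroblast markers, Lum and Twist2 had no tag in any library, and of 3 tested 1 was higher and 2 were lower (sums of 16.3 to 21.9 and 14.3 to 17.2). The higher gene was Prrx1, with 15.9 ± 1.42 in mOPCs and no tag in mESCs. Of 6 endothelial markers, Emcn had no tag in any library and 3 were tested and lower (sums of 13.2 to 14.7 in mESCs and at most 0.0912 in mOPCs). Of 6 Schwann cell and neural crest markers, 3 were higher and 2 lower (sums of 25.6 to 29.98 and 32.6 to 33.8), among them Tfap2a with 12.5 ± 1.06 in mOPCs. Astrocyte markers were higher in 2 and lower in 2 of 4 tested (sums of 78.7 to 93.5 and 14.5 to 16), and of 5 neuron markers 1 was higher and 4 were lower (sums of 279 to 305 and 81.3 to 102). Of 6 markers of microglia and blood, Cx3cr1 and Ptprc had no tag in any library and Cd68, the only gene tested, was lower (sums of 17.7 to 21 and 9.44 to 10.5). Their part in the collagens, laminins and integrins was not tested either.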

How the data were processed

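CAGE libraries of nuclear RNA from R08 mESCs (3) and oli-neu mOPCs (3) were analysed. Per the study's methods, the authors split reads by barcode, trimmed linkers and kept uniquely aligned tags on mm10. The submitters' processing notes name CASAVA 1.8 and BWA 0.5.9, whereas the methods name bowtie. The deposited values are raw counts of tags per 5′ position and strand for every position with a tag, without normalization. No other columns of sample values were left aside (0).

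Here, tags within 500 bp of annotated 5′ ends on the gene's strand were summed for 21938 protein-coding genes of GENCODE vM21 on chromosomes 1 to 19, X and Y, and divided by the library total (16657021 to 40928704) for CPM. Genes with enough counts (filterByExpr) were tested with edgeR 4.0.16 in R 4.3.3 (robust quasi-likelihood fit, TMM normalization, library totals as library sizes, Benjamini-Hochberg adjusted p under 0.05 over 14222 genes). The test was checked on simulated counts in which few genes changed. That check does not cover data such as these, where most tested genes were called. Fold changes are mOPC over mESC. Their SE is the absolute log2 fold change divided by the square root of the test's F statistic. Where a line had only a few tags, this SE is too narrow to serve as the counting error. Against 0 tags a bound was set from 3 tags over the pooled libraries (91692553 mOPC tags, 72972385 mESC tags). Ratios resting on 1 to 3 tags carry an exact (Clopper-Pearson) 95% interval. Tags carry no molecular identifiers, so both cover counting error only. Other steps used Python 3.11.15, numpy 2.4.6, pandas 2.3.3, scipy 1.17.1 and matplotlib 3.10.9.

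The members and lists were chosen with earlier results of these data known. Named by rule were, per family and direction, the 5 called members with the largest change at 5 CPM or more, the 3 highest per family and line, uncalled members at that level, chains that assemble or share a promoter, called members with 0 tags in a line, and the 2 largest changes per direction of each list. The values of 1 laminin gene are not reported here, although it is in the counts and sums. Promoter sequences are from RefSeq (GRCm38.p6). Alternatives were DESeq2 1.42.0, no TMM, no filter, tags within 100 bp or in the whole gene, long non-coding RNAs in the fit, a replicate block and each library left out.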

Additional observations from a re-analysis of the deposited data

Results flagged for a closer look

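Tags inside a gene and away from its annotated 5′ ends are not part of the levels at annotated starts, though the text above gives them for several genes. Only members in which they outnumbered the tags at the annotated starts of a line were considered. Among these, they reached 1000 in the pooled libraries of that line in 6 members. Itga1, whose inside tags lie at the start of Pelo, is left aside. In pooled mOPCs there were 4448 such tags in Col5a3, 4593 in Col9a1, 5399 in Col9a2, 2471 in Col9a3 and 2857 in Col18a1. In pooled mESCs there were 1456 in Itgae, a gene with no tag at its annotated starts in any library. Of these, 90.7% lay at chr11:73138337-73138536, in an intron of Itgae on the plus strand and beside the start of Haspin, a gene of the opposite strand. Scaled to the libraries, Itgae had 20.8 ± 2.94 CPM inside in mESCs and 2.93 ± 0.402 in mOPCs (mean ± SD, n = 3). Each of the 3 libraries of the higher line was above each of the other for all 6 genes. At the annotated starts the libraries of the lines did not overlap for 91.4% of all tested genes. The 6 genes were also picked by their many inside tags in a line, so this separation says little by itself. Groups of 3 libraries were not searched for outlying samples.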

How the results depend on the processing

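Of 234 counts of called genes under the alternatives, 232 lay within 1.5 times the reported count. The exceptions came without a filter on low counts, where more genes were tested, with 17 collagens called lower instead of 10, and 30 members lower by at least 3 on the log2 scale instead of 18 (a count added after seeing the data). Over all alternatives the members called higher ranged from 22 to 33 and those called lower from 23 to 37. With 1 library left out they ranged from 25 to 27 and from 24 to 27, and those lower by at least 3 on the log2 scale from 15 to 20. Of 606 fold changes of 47 named members, 596 kept their direction and their side of the threshold. Over all tags inside the gene, Col5a3 turned to 3.47, Col9a2 to 4.49, Itga4 to 1.69 and Itga1 to -0.70, and Col13a1 (-0.24) no longer passed. With tags within 100 bp, Col2a1 turned to -2.61 and Col9a3 to -0.034. Col22a1, never called, turned to -0.0198 with DESeq2 and -0.068 with long non-coding RNAs in the fit, and ranged from -0.027 to 0.14 with 1 library left out, turning without mESC replicate 2. The cause was not tested beyond which tags were counted. Long non-coding RNAs in the fit shifted the median change of all genes by -0.101. Leaving out a library moved 114 of 114 shares and sums by less than 1 SD. With 3 libraries a mean cannot move further than that, so this result says nothing about stability.

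Replicate numbers were not used as pairs. Deviations of same-numbered libraries had correlations of 0.0123, 0.122 and 0.0225, and the fit with a replicate block gave 25 members higher and 25 lower, as without it. Leading start positions of single libraries matched the pooled position in 179 of 213 cases. When the whole gene was searched, 6 of 71 positions moved by more than the spread between the libraries of the line. That of Col2a1 in mESCs is not among them, since it moved by 8102 bp within a spread of 14321 bp. Depth limits the 32 untested genes, since 3 tags correspond to 0.0411 CPM in pooled mESCs and 0.0327 in pooled mOPCs. Values at or under these levels are not shown to be absent.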

Other observations

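Tags inside other members, away from annotated 5′ ends, are given as CPM (mean ± SD, n = 3 libraries of a line), for genes picked after their values were seen. Itgb7, an integrin subunit of lymphocytes, had 11.8 ± 0.422 inside in mESCs and 0.446 ± 0.197 in mOPCs, 76.3% of the mESC tags at chr15:102224493-102224692 in an exon. Itgal, the α subunit of a leukocyte integrin, had 3.77 ± 0.698 and 0.169 ± 0.0591, densest at chr7:127310134-127310333 in an intron. The integrin-like gene Itgbl1 had 4.59 ± 0.652 and 0.14 ± 0.0605. Col6a4, a collagen VI chain without tags near its starts in mOPCs, had 3.12 ± 0.589 and 0.131 ± 0.0797, and Lama3, the α3 laminin chain, 4.04 ± 0.244 and 0.246 ± 0.073. Col26a1 had 2.87 ± 0.334 and 0.511 ± 0.0736, and Itgb4, the hemidesmosome subunit, 4.46 ± 0.249 and 2.33 ± 0.179.

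In mOPCs the higher values were those of Col20a1, with 0.307 ± 0.0468 inside in mESCs and 10.5 ± 0.44 in mOPCs, spread over the gene so that its densest 200 bp held 7.9% of them. Itgb2, the β subunit of leukocyte integrins, had 0.278 ± 0.142 and 4.06 ± 0.164, with 44.9% of the mOPC tags at chr10:77550162-77550361 in an intron. Col2a1 had 2.75 ± 0.113 and 3.68 ± 1.16. Most of these stretches have no annotated 5′ end of another gene, and what RNA they belong to was not tested.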
